A study of Homo sapiens with 9 samples.

Results

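The 10 genes described here are ERK-pathway feedback and output genes: the phosphatases DUSP4, DUSP5 and DUSP6, the Sprouty genes SPRY1, SPRY2 and SPRY4, the Sprouty-related SPRED1 and SPRED2, and the ETS transcription factors ETV4 and ETV5. They were chosen by name from the pathway, and all 10 were found among the 17958 genes analysed, each with 1 probe set. Expression was measured in the human colorectal cancer line HCT 116 at 24 hours from transfection. One group, KL-FL, received mouse full-length klotho, the second, KL1, received the mouse klotho subdomain KL1, and the control received the vector pcDNA3 alone. There were 3 arrays in each group and 9 in all, with values on a log2 scale. Cells of every group went through transfection, by JetPEI or by polyethylenimine. Which of these reagents a given array had is not in the labels. Nor do they say that replicates were separate cultures, and p-values here rest on a spread between arrays that may be only technical.

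ERK is the last kinase of the RAS-RAF-MEK-ERK cascade, which carries signals from growth factor receptors to the nucleus. Active ERK raises the transcription of its own inhibitors: DUSP phosphatases remove the activating phosphates from MAP kinases, while Sprouty and SPRED proteins act upstream, at the level of RAS and RAF. ETV4 and ETV5 are transcription factors induced by the same signal, and RNA of these feedback and output genes is widely read as a gauge of ERK activity. Klotho is a membrane protein that pairs with FGF receptors to bind the hormone FGF23, a signal that runs through ERK. HCT 116 carries an activating mutation in a RAS gene.

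The 10 genes differed little between vectors. DUSP6 was the one member in which all 6 arrays of the klotho groups lay below all 3 controls, with log2 differences of -0.17 for KL-FL and -0.11 for KL1. The DUSP6 pattern was held by 1.36% of all genes. SPRED2 was lower on all 3 KL1 arrays than on every KL-FL and control array, by about 0.09 on the log2 scale. Over all genes KL1 lay below control without overlap in 4.34% and KL-FL above KL1 in 4.67%, and the share with both was not counted. In limma, a linear model fitted over all genes with two-sided tests and Benjamini-Hochberg adjustment, 0 of the 10 genes passed an adjusted p of 0.05 in any of the 3 comparisons. Over all genes 0.00557% were called between KL-FL and control, 0.00557% between KL1 and control and 0% between KL-FL and KL1. At an unadjusted p under 0.05 there was 1 member between KL-FL and control, DUSP6, which was lower, where 7.16% of all genes passed, 4.88% higher and 2.28% lower. There were 2 between KL1 and control, DUSP6 and SPRED2, both lower, where 5.1% of all genes passed, 2.99% higher and 2.11% lower. Between KL-FL and KL1 there was 1, SPRED2, which was higher, where 5.05% of all genes (906) passed, 3.49% higher and 1.55% lower.

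The stretches upstream of the start sites are shown for 4 of the 6 genes with a window. DUSP6, SPRED2 and SPRY4 each had groups that did not overlap, while the groups of SPRY2 all overlapped. SPRY1 and SPRED1 are not shown. ETS factors such as ETV4 and ETV5 bind a GGAA core, and these are candidate stretches for such cores. RefSeq windows (GRCh38.p14) were used for 6 of the 10 genes (not DUSP4, DUSP5, ETV4 or ETV5), in 10 windows for alternative starts, and the 250 bases before each start were searched on both strands for GGAA, for the longer ETS site CCGGAA, which holds a GGAA, for the AP-1 site TGANTCA and for the cAMP response element TGACGTCA. For genes with several windows the first listed is shown. Capitals mark the matches, written 5′ to 3′ on the strand of the gene.
DUSP6, chr12:89352502-89352751, minus strand: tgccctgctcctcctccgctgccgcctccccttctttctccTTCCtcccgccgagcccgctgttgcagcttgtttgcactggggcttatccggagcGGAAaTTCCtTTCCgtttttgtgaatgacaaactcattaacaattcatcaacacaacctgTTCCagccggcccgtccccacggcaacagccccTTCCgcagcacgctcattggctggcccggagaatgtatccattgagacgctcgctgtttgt
SPRED2, chr2:65432600-65432849, minus strand: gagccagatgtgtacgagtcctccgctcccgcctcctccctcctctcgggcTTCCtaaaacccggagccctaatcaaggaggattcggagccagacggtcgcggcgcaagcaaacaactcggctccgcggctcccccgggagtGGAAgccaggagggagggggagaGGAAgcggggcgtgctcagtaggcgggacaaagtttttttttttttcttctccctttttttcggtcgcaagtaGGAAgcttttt
SPRY4, chr5:142324248-142324497, minus strand: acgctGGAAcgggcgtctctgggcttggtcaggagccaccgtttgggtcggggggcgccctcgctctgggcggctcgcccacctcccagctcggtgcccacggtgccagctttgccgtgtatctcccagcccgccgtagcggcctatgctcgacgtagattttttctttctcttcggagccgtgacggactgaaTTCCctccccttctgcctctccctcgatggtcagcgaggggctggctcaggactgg
SPRY2, chr13:80341127-80341376, minus strand: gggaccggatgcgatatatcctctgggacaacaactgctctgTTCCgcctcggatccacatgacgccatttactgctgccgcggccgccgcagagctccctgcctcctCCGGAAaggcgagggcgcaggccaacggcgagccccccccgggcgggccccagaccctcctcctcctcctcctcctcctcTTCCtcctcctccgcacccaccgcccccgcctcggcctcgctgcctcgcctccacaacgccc
The DUSP6 window held 6 GGAA cores, a count reached or passed by 9.14% of all 35116 windows of this length, where the median was 3. The SPRED2 window held 4, the SPRY4 window 2 and the SPRY2 window 3, counts reached or passed by 34.3%, 76.5% and 55.1% of windows. GGAA occurred at least once in 92.7% of all windows, so its presence alone sets no gene apart. The longer CCGGAA was found in the SPRY2 window above and in 1 of 2 SPRY1 windows, against 14.5% of all windows. TGANTCA, present in 6.57% of all windows, and TGACGTCA, present in 1.65%, were not in any of the 10 windows. A match is a run of letters and not a measured binding site.

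Among the phosphatases, DUSP6 is the cytoplasmic phosphatase selective for ERK. DUSP6 (probe set 7965335) had log2 values of 8.08, 8.13 and 8.01 on the KL-FL arrays, 8.13, 8.13 and 8.12 on the KL1 arrays, and 8.26, 8.21 and 8.24 on the control arrays. The controls were the highest 3 of the 9 values, and the KL-FL and KL1 ranges overlapped. KL-FL averaged 8.07 ± 0.061, KL1 8.13 ± 0.0032 and control 8.24 ± 0.024 (SD, n = 3 each). The difference of KL-FL from control was -0.17 on the log2 scale (SE 0.035, 95% interval -0.25 to -0.086), a ratio of 0.891, with limma adjusted p = 0.55. By unadjusted p, 0.00118, it ranked 33rd of all genes. For KL1 the difference was -0.11 (SE 0.035, interval -0.19 to -0.032), a ratio of 0.925, with limma adjusted p = 0.927. The 2 comparisons share their control arrays, so they are not independent of each other. DUSP6 was the one member below every control in both klotho groups, a pattern held by 244 genes, or 1.36% of all. KL-FL minus KL1 was -0.054 (interval -0.13 to 0.026, limma adjusted p = 0.855), which leaves their order unsettled.

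The DUSP6 difference did not rest on 1 array. When each of the 9 arrays was left out in turn it stayed between -0.19 and -0.13 for KL-FL and between -0.13 and -0.10 for KL1. With limma's array weights, which give less weight to arrays that fit the model poorly, DUSP6 passed between KL-FL and control at adjusted p = 0.0247 with a log2 difference of -0.15. That setting also called 523 genes in all, against 1 without weights. No weighted call of DUSP6 was made between KL1 and control (adjusted p = 0.553).

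DUSP4, a nuclear phosphatase induced by ERK, had the same sign with a wider spread. DUSP4 read 6.22, 6.23 and 6.03 on the KL-FL arrays, 6.14, 6.25 and 6.16 with KL1, and 6.22, 6.31 and 6.27 in control, so that all 3 groups overlapped. Its log2 difference was -0.10 (SE 0.057, limma adjusted p = 0.712) for KL-FL and -0.081 (SE 0.057, limma adjusted p = 0.927) for KL1. Without KL-FL replicate 3, the lowest of the 9 values, the KL-FL difference was -0.039. DUSP5, a nuclear phosphatase that also anchors ERK there, read 7.94, 8.06 and 7.72 with KL-FL, 8.02, 7.91 and 7.88 with KL1, and 7.88, 7.91 and 7.91 in control. The KL-FL arrays enclosed the other groups on both sides, with an SD of 0.18 against 0.077 with KL1 and 0.019 in control. The DUSP5 differences from control were 0.0053 (interval -0.17 to 0.18) for KL-FL and 0.036 (interval -0.14 to 0.21) for KL1.

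**Figure D1:**
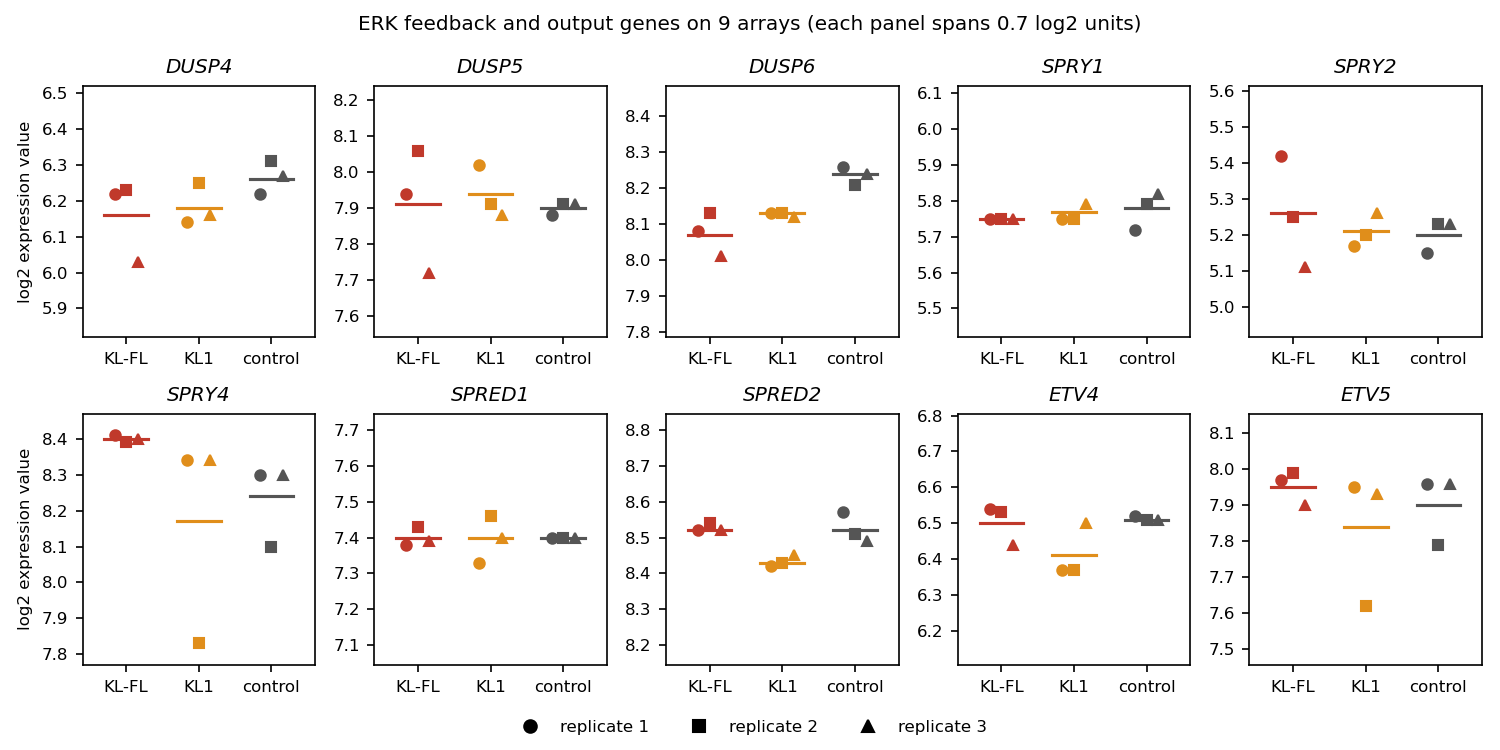
Log2 expression value of each of the 10 genes (y axis, 0.7 log2 units in every panel) on the KL-FL, KL1 and control arrays (x axis). Each point is 1 array, its shape is the replicate number, and the bar is the mean of 3. DUSP6 lies between 8.01 and 8.13 on the 6 klotho arrays and between 8.21 and 8.26 on the controls, and SPRY4 and ETV5 each have 1 low KL1 array.

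Sprouty proteins are membrane-linked inhibitors of receptor tyrosine kinase signalling, and SPRY4 had the largest range over the 9 arrays of any member, 0.58. SPRY4 (probe set 8114797) read 8.41, 8.39 and 8.40 with KL-FL, 8.34, 7.83 and 8.34 with KL1, and 8.30, 8.10 and 8.30 in control. All 3 KL-FL arrays lay above every other array, with an SD of 0.0079. Over all genes 7.13% lay above control with KL-FL, and 4.67% above KL1, without overlap. KL1 replicate 2 and control replicate 2, which share a replicate number, lay far below their own groups. The KL-FL difference was 0.16 from control (SE 0.13, interval -0.12 to 0.45, limma adjusted p = 0.757) and 0.23 from KL1 (interval -0.051 to 0.52, adjusted p = 0.855). Without control replicate 2 the KL-FL difference from control was 0.098, and without KL1 replicate 2 the KL-FL minus KL1 difference was 0.063. KL1 minus control was -0.068 (interval -0.35 to 0.22) and turned to 0.10 without KL1 replicate 2. With the replicate number as a block, KL-FL minus KL1 for SPRY4 had an SE of 0.093 (limma unadjusted p = 0.0413, adjusted p = 0.824). The within-group SD of SPRY4, 0.18, was higher than that of 98.1% of all genes, whose median was 0.061.

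SPRY2 read 5.42, 5.25 and 5.11 with KL-FL, 5.17, 5.20 and 5.26 with KL1, and 5.15, 5.23 and 5.23 in control. As with DUSP5, the KL-FL arrays held both the highest and the lowest value. The SPRY2 differences from control were 0.060 (interval -0.098 to 0.22) for KL-FL and 0.010 (interval -0.15 to 0.17) for KL1. The KL-FL difference was -0.020 without KL-FL replicate 1, 0.14 without KL-FL replicate 3, 0.035 without control replicate 1 and 0.19 with array weights (limma adjusted p = 0.0667). SPRY1 was the flattest member, with a range of 0.095 over the 9 arrays: 5.75 on all 3 KL-FL arrays, 5.75, 5.75 and 5.79 with KL1, and 5.72, 5.79 and 5.82 in control. The controls enclosed both klotho groups. SPRY1 differed from control by -0.024 (interval -0.097 to 0.049) with KL-FL and by -0.0092 (interval -0.082 to 0.064) with KL1. The table gives no detection call, so low expression of SPRY1 or SPRY2 cannot be told from background.

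SPRED proteins bind neurofibromin, the GTPase-activating protein that switches RAS off. SPRED2 (probe set 8052689) read 8.52, 8.54 and 8.52 with KL-FL, 8.42, 8.43 and 8.45 with KL1, and 8.57, 8.51 and 8.49 in control. The KL1 arrays were the lowest 3 of the 9, and KL-FL lay inside the control range. KL1 differed from control by -0.089 (SE 0.030, interval -0.16 to -0.020), a ratio of 0.940, with limma adjusted p = 0.927 and unadjusted p = 0.0168. KL-FL exceeded KL1 by 0.091 (SE 0.030, interval 0.023 to 0.16), with limma adjusted p = 0.855 and unadjusted p = 0.0147. KL-FL minus control was 0.0025 (interval -0.066 to 0.071). With single arrays left out, the KL1 difference from control stayed between -0.10 and -0.065. SPRED1 read 7.38, 7.43 and 7.39 with KL-FL, 7.33, 7.46 and 7.40 with KL1, and 7.40 on all 3 controls. Both klotho groups enclosed the controls, and its differences, 0.0031 for KL-FL and -0.0020 for KL1, had intervals of -0.081 to 0.088 and -0.086 to 0.082.

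ETV4 and ETV5 belong to the PEA3 group of ETS factors. ETV4 read 6.54, 6.53 and 6.44 with KL-FL, 6.37, 6.37 and 6.50 with KL1, and 6.52, 6.51 and 6.51 in control. All 3 KL1 arrays lay below the controls, the third by a narrow margin, and KL-FL arrays lay on both sides of them. ETV4 differed from control by -0.012 (interval -0.11 to 0.089) with KL-FL and by -0.099 (SE 0.044, interval -0.20 to 0.0020, limma adjusted p = 0.927) with KL1. ETV5 read 7.97, 7.99 and 7.90 with KL-FL, 7.95, 7.62 and 7.93 with KL1, and 7.96, 7.79 and 7.96 in control. Its low values were again KL1 replicate 2 and control replicate 2, and all 3 groups overlapped. The ETV5 difference was 0.046 (interval -0.15 to 0.24) for KL-FL and -0.068 (interval -0.27 to 0.13) for KL1, and the KL1 value turned to 0.040 without KL1 replicate 2. With the replicate number as a block the SE of the KL1 difference was 0.074, against 0.087 without it.

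**Figure D2:**
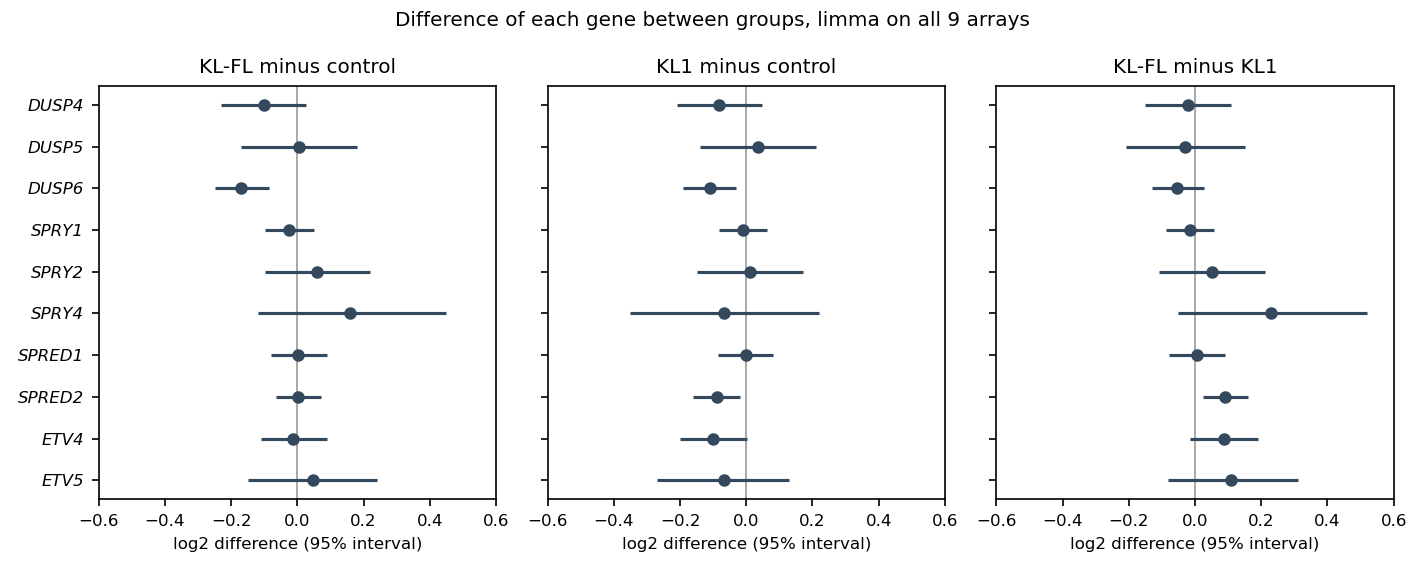
Log2 difference of each of the 10 genes (y axis) in the 3 comparisons (panels), as limma estimates from all 9 arrays, with 95% intervals as bars (x axis). The DUSP6 intervals lie below 0 in both comparisons with control, at -0.25 to -0.086 and -0.19 to -0.032, and SPRED2 lies below 0 with KL1, at -0.16 to -0.020.

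Across the list, 6 of 10 members were higher and 4 lower with KL-FL than in control, with a median log2 difference of 0.0028 against 0.0099 over all genes. With KL1, 2 were higher and 8 lower, where 52.2% of all genes were higher. Their median was -0.068, against 0.0026 over all genes and -0.014 over the brighter 50% of genes, which held 9 of the members. The KL1 median rested largely on KL1 replicate 2, without which 4 were higher and 6 lower, with a median of -0.018. It was -0.038 without control replicate 1 or control replicate 3, and -0.019 with array weights. Under quantile normalization 4 were higher and 6 lower, with a median of -0.055. The KL-FL median took either sign, from -0.017 without KL-FL replicate 1 to 0.014 without KL-FL replicate 3. Between KL-FL and KL1, 6 were higher and 4 lower, with a median of 0.028 against 0.0058, and with KL-FL replicate 1 left out this median was -0.00013, while leaving out KL-FL replicate 3 gave 0.079. Groups did not overlap in 1 member higher and 1 lower with KL-FL, SPRY4 and DUSP6, where 10.4% of all genes did so, 7.13% higher and 3.25% lower. With KL1 there were 0 higher and 3 lower than control, DUSP6, SPRED2 and ETV4, against 9.47% of all genes, 5.13% higher and 4.34% lower. KL-FL lay above KL1 without overlap in 2, SPRY4 and SPRED2, against 6.88% of all genes, 4.67% higher and 2.21% lower. Fewer arrays make a gap commoner in all genes. Without KL-FL replicate 3, 5 members lay above and 1 below control with KL-FL, where 17.6% and 5.59% of all genes did so, and 4 lay above KL1, against 13.7%. Without control replicate 1, 2 lay above and 3 below control with KL-FL, against 13.1% and 6.08% of all genes. Without KL1 replicate 2, 1 lay above and 4 below control with KL1, against 9.88% and 9.87%. ETV4 dropped out of the KL1 count under quantile normalization and with arrays centred on their medians. Under quantile normalization SPRY4 no longer separated KL-FL from KL1, and DUSP6 lay lower with KL-FL than with KL1 without overlap.

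**Figure D3:**
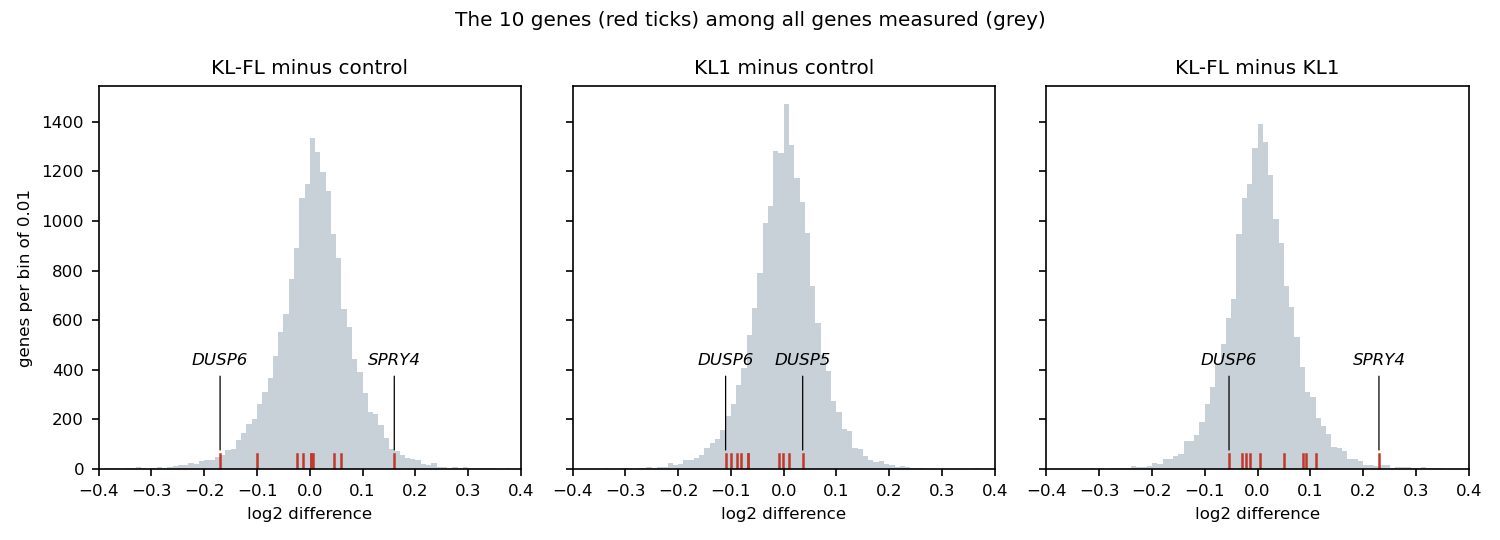
Histogram of the log2 difference (x axis, bins of 0.01) over all genes (grey, y axis in genes per bin), with the 10 members as red ticks and the outermost on each side named. Axes end at -0.4 and 0.4, which leaves out 29, 12 and 25 genes of the 3 panels. DUSP6 at -0.17 and SPRY4 at 0.16 lie in the tails of KL-FL minus control.

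Arrays differed in the members that read low. KL-FL replicate 3 held the lowest value of DUSP4, DUSP5, DUSP6 and SPRY2, and its 10 members averaged 0.052 below their means over the 9 arrays, or -0.052, where all genes averaged -0.022. KL1 replicate 2 held the lowest value of SPRY4, ETV4 and ETV5 and averaged -0.083, where all genes averaged -0.0015. These were also the 2 arrays least like the rest, with median correlations over all genes of 0.997 and 0.9979 to the other 8 arrays, against 0.9986 to 0.9989 for the remaining 7. Array medians ran from 5.376 to 5.417. Their part in the member values was not tested beyond leaving them out. Without both arrays DUSP6 differed from control by -0.13 (limma adjusted p = 0.349) with KL-FL and by -0.11 (adjusted p = 0.59) with KL1, and SPRED2 by -0.088 with KL1.

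Members were compared with each other over the 9 arrays, in 45 pairs. SPRY4 and ETV5 had the highest Pearson r, 0.951 (exact permutation p = 0.00817, 0.368 after adjustment over the 45 pairs), and a Spearman rho of 0.577 (exact permutation p = 0.11, adjusted 0.612). The relation rested on KL1 replicate 2 and control replicate 2, the 2 arrays farthest from the median of SPRY4: without them r was -0.127. DUSP4 and DUSP6 had r = 0.728 (exact permutation p = 0.0251, adjusted 0.398) and rho = 0.621 (exact p = 0.0798, adjusted 0.612). Their r was 0.376 without the 2 arrays farthest on DUSP4 and 0.627 without the 2 farthest on DUSP6. SPRED2 and ETV4 had r = 0.721 (exact permutation p = 0.0265, adjusted 0.398) and rho = 0.717 (exact p = 0.0369, adjusted 0.612), and r = 0.154 without KL1 replicates 1 and 2. The highest rho was that of ETV4 and ETV5, 0.767 (exact permutation p = 0.0214, adjusted 0.612), with r = 0.553. The lowest was that of DUSP6 and SPRY4, -0.689 (exact permutation p = 0.0446, adjusted 0.612), with r = -0.236. Of the 45 pairs 0 passed after adjustment, and 33 were positive.

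**Figure D4:**
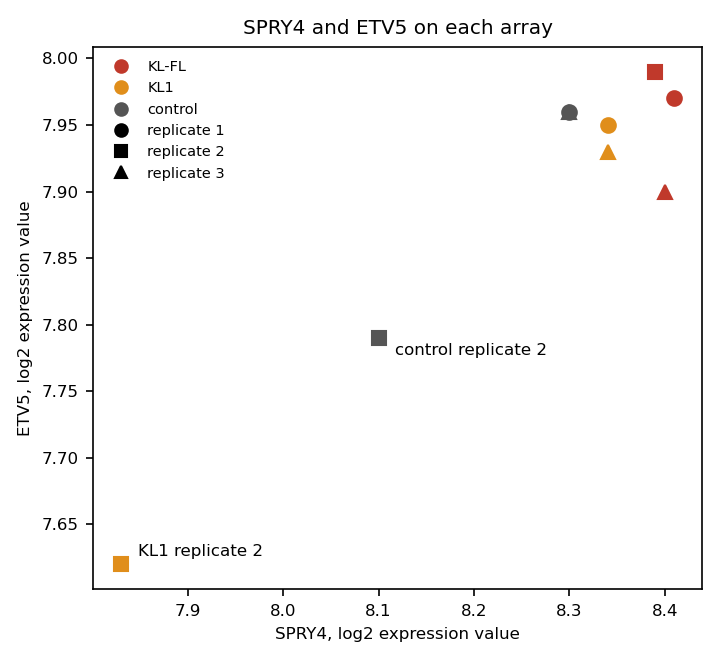
ETV5 (y axis) against SPRY4 (x axis), both as log2 expression values, 1 point per array with the group as colour and the replicate number as shape. Control replicates 1 and 3 coincide. KL1 replicate 2 (7.83 and 7.62) and control replicate 2 (8.10 and 7.79) lie apart from the other 7 arrays.

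The genes most like the mean profile of the members over the 9 arrays were taken from 3121 genes with an SD of at least 0.1, and are a description, since they were picked for their correlation. CA5BP1, a pseudogene (r = 0.956), ID3, an inhibitor of basic helix-loop-helix transcription factors (r = 0.956), and PAX9, a paired-box transcription factor (r = 0.942), followed it most closely. ID3 read 8.14, 8.18 and 7.74 with KL-FL, 8.06, 7.65 and 8.04 with KL1, and 8.13, 8.06 and 8.13 in control, with its low values on KL-FL replicate 3 and KL1 replicate 2. HSD3BP4 (r = -0.919), LYSMD4 (r = -0.916) and TCF20 (r = -0.907) ran opposite. TCF20, a transcriptional coregulator, read 6.16, 6.22 and 6.76 with KL-FL, 6.42, 6.74 and 6.37 with KL1, and 6.31, 6.45 and 6.46 in control, highest on those same 2 arrays.

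Outside the 10 genes, 73 of 82 listed genes of the pathway were analysed, and 0 passed in limma in any comparison, while 8 of 73 had an unadjusted p under 0.05 with KL-FL (7.16% of all genes), 7 with KL1 (5.1%) and 6 between KL-FL and KL1 (5.05%). With KL-FL 35 were higher and 38 lower, with a median of -0.0014. With KL1 27 were higher and 46 lower, with a median of -0.023. Over all genes 57.3% were higher with KL-FL and 52.2% with KL1, with medians of 0.0099 and 0.0026. Over the brighter 50% of genes the medians were 0.0015 with KL-FL and -0.014 with KL1. These values are the background for each list below as well. Other ERK-dependent transcripts, 14 in all, had 11 higher and 3 lower with KL-FL (median 0.036) and 5 higher and 9 lower with KL1 (median -0.020). JUNB, an AP-1 subunit, had the smallest p among them for KL-FL. JUNB read 7.88, 7.91 and 7.61 with KL-FL against 8.01, 7.93 and 8.05 in control, all below, as in 3.25% of all genes. The JUNB difference was -0.20 (SE 0.073, limma adjusted p = 0.688), and -0.10 without KL-FL replicate 3. LIF, a cytokine of the IL-6 family, had the smallest p for KL1, at -0.098 (SE 0.057, adjusted p = 0.927), and was -0.022 without control replicate 2. The LIF difference was -0.0044 with the mean of its probe sets.

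Ligands of the EGF receptor family, which signal upstream of RAS, had 4 of 5 members higher in both comparisons, with medians of 0.057 for KL-FL and 0.016 for KL1. HBEGF read 6.73, 6.69 and 6.63 with KL-FL, 6.76, 6.69 and 6.89 with KL1, and 6.50, 6.58 and 6.55 in control, so all 6 klotho arrays lay above the controls. Over all genes 7.13% lay above control without overlap with KL-FL and 5.13% with KL1, and the share in both was not counted. HBEGF, heparin-binding EGF, differed from control by 0.14 with KL-FL (limma adjusted p = 0.688) and by 0.24 with KL1 (SE 0.052, interval 0.12 to 0.36, adjusted p = 0.901). EREG, epiregulin, read 10.35, 10.36 and 10.39 with KL-FL against 10.25, 10.30 and 10.30 in control, a difference of 0.082 (SE 0.029, limma adjusted p = 0.688). Receptors and FGF adaptors had 3 of 12 higher and 9 lower in both comparisons, with medians of -0.046 for KL-FL and -0.048 for KL1. KLB, the relative of klotho that pairs with FGF receptors for other hormonal FGFs, differed by -0.12 with KL-FL (SE 0.043, limma adjusted p = 0.688), and the insulin-like growth factor receptor IGF1R by -0.18 with KL1 (SE 0.061, adjusted p = 0.927). The IGF1R difference was -0.11 without KL1 replicate 3, and -0.12 with the mean of its probe sets.

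The cascade itself had 8 of 18 measured genes higher and 10 lower with KL-FL (median -0.0015), and 6 higher and 12 lower with KL1 (median -0.027). SHOC2, a scaffold that helps activate RAF, read 8.25, 8.24 and 8.30 with KL-FL, 8.26, 8.33 and 8.21 with KL1, and 8.04, 8.18 and 8.19 in control. Again both klotho groups lay above the controls. Over all genes 7.13% did so with KL-FL and 5.13% with KL1, and the share in both was not counted. The SHOC2 differences were 0.13 for KL-FL (SE 0.049, limma adjusted p = 0.688) and 0.13 for KL1 (adjusted p = 0.927). Without control replicate 1, the lowest SHOC2 value, the KL-FL difference was 0.077. GAB1, a docking adaptor, differed by -0.14 with KL1 (SE 0.052, limma adjusted p = 0.927), and by -0.028 with the mean of its probe sets. Other DUSPs had 4 of 10 higher with KL-FL (median -0.023) and 5 of 10 with KL1 (median 0.0075), with DUSP14 at 0.15 (SE 0.088) and DUSP8 at 0.16 (SE 0.093) having the smallest p in these comparisons. DUSP14 was 0.080 without KL-FL replicate 2, 0.098 without control replicate 3 and 0.25 without KL-FL replicate 3, and DUSP8 was 0.046 without KL1 replicate 2 and 0.26 without KL1 replicate 1. Other ETS factors had 5 of 13 higher with KL-FL (median -0.024) and 3 of 13 with KL1 (median -0.036), with ELK4 at 0.069 (SE 0.035) and EHF at -0.085 (SE 0.038). ELK4 was 0.040 without control replicate 1, and EHF was -0.051 without KL1 replicate 3. Of the remaining family members, SPRY3 differed by -0.087 with KL-FL (SE 0.039) and SPRED3 by 0.11 with KL1 (SE 0.049). SPRY3 was -0.056 without KL-FL replicate 1, and SPRED3 was 0.062 without control replicate 2. With array weights, which called 523 of all genes between KL-FL and control, SPRY3 (limma adjusted p = 0.0431) and KLB (adjusted p = 0.0474) passed. Only the pathway genes named for their smallest p were looked up in that setting. Group means of SPRY3 were 3.27 with KL-FL and 3.35 in control and those of KLB 3.48 and 3.61, near the median of 3.51 over the fibroblast and endothelial markers, and cannot be told from background.

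**Figure D5:**
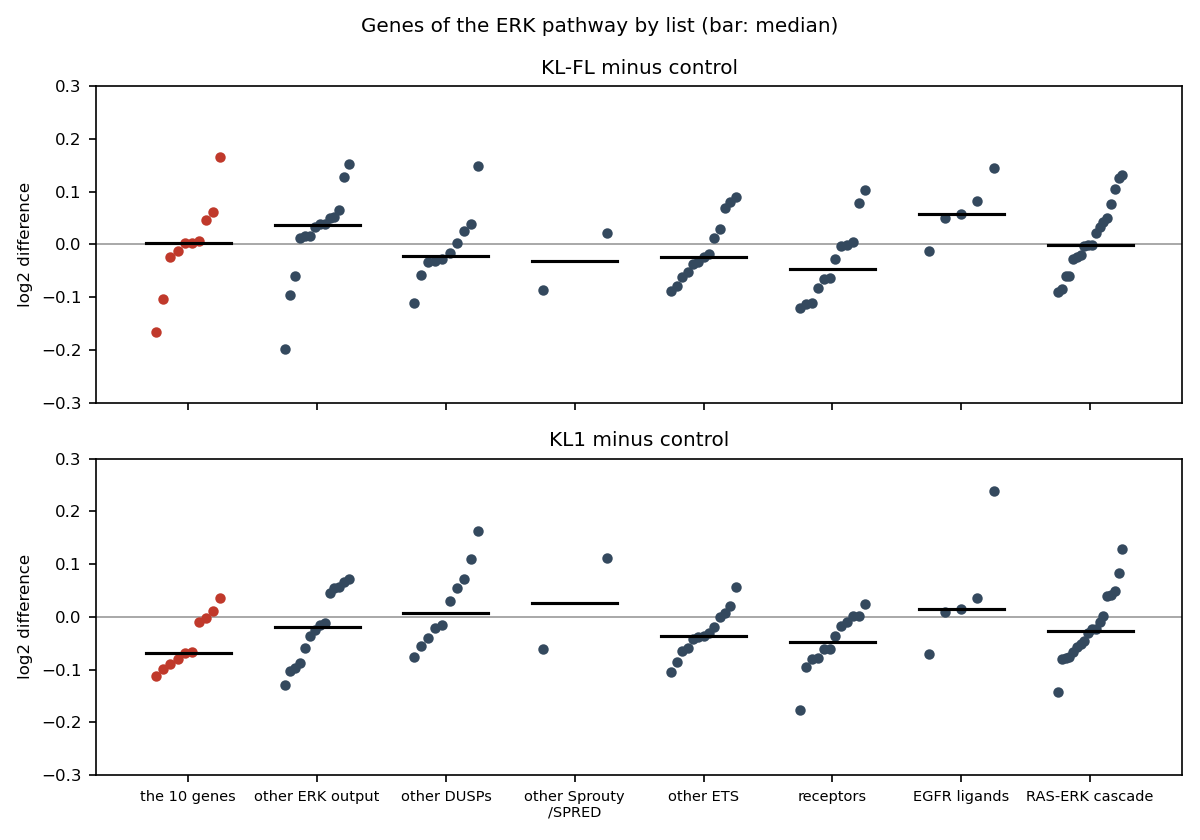
Log2 difference from control (y axis) of each gene of the pathway lists (x axis), for KL-FL (top) and KL1 (bottom). Each point is 1 gene, sorted by value within its list, red for the 10 genes, and the bar is the median: 0.0028 with KL-FL and -0.068 with KL1 for the 10 genes (-0.018 without KL1 replicate 2).

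The row for human KL read 0.14 higher with KL-FL (limma adjusted p = 0.637) and 0.15 higher with KL1 (adjusted p = 0.927) on the log2 scale. The vectors carried mouse klotho and the array is for human genes, so KL is a weak check of the labels. The 1 gene called in both comparisons with control was DDIT3, a stress-induced transcription factor named here after its values were seen, at 0.65 with KL-FL (limma adjusted p = 0.0348) and 0.78 with KL1 (adjusted p = 0.00687). With the replicate number as a block the DDIT3 call was lost, at adjusted p = 0.226 with KL-FL and 0.0611 with KL1. Leaving out any 1 control or KL1 array also ended both calls, and leaving out KL-FL replicate 1 ended the KL-FL call (adjusted p = 0.205), while the DDIT3 difference stayed between 0.57 and 0.69 with KL-FL and between 0.77 and 0.80 with KL1. Markers of the labelled cell type were also checked. Epithelial markers had mean log2 values from 3.77 (VIL1) to 10.7 (KRT8) over 11 genes, fibroblast and endothelial markers from 2.55 to 5.77 over 10, and leukocyte markers from 2.74 to 6.17 over 7. With KL-FL the medians of the 3 lists differed from control by -0.015, 0.029 and -0.0073, and with KL1 by -0.015, 0.012 and 0.020, with 0 genes called in limma. At an unadjusted p under 0.05, PDGFRB was higher in both comparisons and NKG7 with KL1.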

How the data were processed

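RNA of HCT 116 cells was extracted 24 hours after transfection and 100 ng of total RNA went into labelling for whole-transcript arrays, per the labels' protocols. The deposited table holds log2 values made by the authors, for 33297 probe sets on 9 arrays. The submitters' processing notes name Partek 6.6. How background and normalization were handled is not stated in the sources used. A log base of 2 is an inference from the range, 1.79 to 12.4. Probe sets naming 1 gene were kept (19181), the brightest per gene over the 9 arrays, giving 17958 genes. Names came from the platform's annotation, with 0 symbols changed and 38 unmatched in the current reference.

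Samples were grouped by title. A 3-group linear model was fitted to all arrays with limma 3.58.1 in R 4.3.3 and checked on simulated arrays. Adjusted p-values are two-sided, Benjamini-Hochberg over all genes, and intervals are limma's own for single genes at 95%. Same-numbered control and KL1 arrays deviated together (correlations of 0.113, 0.322 and 0.186), while differently numbered ones ran from -0.258 to 0.0779. A pairing of control and KL1 by number is an inference from these deviations. Same-numbered pairs with KL-FL lay at or under 0.0974. The replicate block still fits a shared effect of the number in every group, KL-FL included. The main fit used no pairing by number, so SEs, intervals and p-values are unpaired unless the replicate block is named. The members, lists and rules were chosen with earlier results of these data known. Beside the members, the text names the gene with the smallest p of each pathway list in each comparison with control, and the 3 genes most and 3 least like the members' mean profile. Marker genes were named after their values were seen. Alternatives covered normalization, filtering, rows per gene, the spread, the samples fitted, a replicate block and leaving out arrays. The number of arrays limits the precision.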

Additional observations from a re-analysis of the deposited data

How the results depend on the processing

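Of the 10 members 0 were called under every alternative in every comparison, except DUSP6 between KL-FL and control with array weights (1 member). SPRY2 was left out by the filter on genes below the 50th percentile. The count of all genes called between KL-FL and control, 1 as reported, was 0 with every probe set tested, with each gene's own variance, with only the 6 arrays compared and with the replicate block, and 523 with array weights. At an unadjusted p under 0.05, limma with the replicate block had 1374 genes. Between KL1 and control the count was also 1, and was 0 with every probe set, own variance or the replicate block (970 at an unadjusted p under 0.05), 2 with array weights and 2 without KL-FL replicate 3 and KL1 replicate 2, an alternative chosen after seeing the data. Between KL-FL and KL1 it was 0, and 1 with array weights or own variance. Leaving out single arrays gave 0 to 1 called genes in both comparisons with control. The replicate block changed no call of a member, and ended the DDIT3 calls. For DUSP6 it gave adjusted p = 0.623 with KL-FL and 0.895 with KL1.

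Members without overlap numbered 2 to 6 with KL-FL, 3 to 5 with KL1 and 2 to 4 between KL-FL and KL1 when single arrays were left out, and 6, 5 and 5 without KL-FL replicate 3 and KL1 replicate 2. Over all genes the shares without overlap in these last settings were 23.2%, 19.7% and 28.7%, against 10.4%, 9.47% and 6.88% with all arrays. When single arrays were left out these shares reached up to 23.2%, 19.9% and 18%. Members at an unadjusted p under 0.05 between KL1 and control numbered 1 (DUSP6) under quantile normalization and without control replicate 1, and 3 with median centring, where ETV4 joined, and with array weights, where DUSP4 joined. Between KL-FL and control they numbered 1 or 2, DUSP6 in every setting.

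Some differences near 0 turned sign, and in each case the cause was not tested. With arrays centred on their medians, KL-FL minus control was -0.0018 for DUSP5, -0.0040 for SPRED1 and -0.0047 for SPRED2. With array weights it was -0.015 for SPRED1 and 0.024 for ETV4, and KL-FL minus KL1 was 0.039 for DUSP4, 0.013 for DUSP5 and -0.0062 for SPRED1. Under quantile normalization KL1 minus control was 0.0032 for SPRY1 and 0.0065 for SPRED1, and KL-FL minus KL1 was -0.00079 for SPRED1. Without KL-FL replicate 3 and KL1 replicate 2, ETV4 was 0.020 for KL-FL minus control, SPRY4 and ETV5 were 0.10 and 0.040 for KL1 minus control, and DUSP4 and DUSP5 were 0.075 and 0.053 for KL-FL minus KL1, where SPRED1 kept its sign at 0.0413. With single arrays left out, KL-FL minus control ran from -0.071 to 0.10 for DUSP5, -0.020 to 0.14 for SPRY2, -0.012 to 0.014 for SPRED1, -0.013 to 0.026 for SPRED2, -0.032 to 0.020 for ETV4 and -0.0083 to 0.074 for ETV5. KL1 minus control ran from -0.0072 to 0.066 for DUSP5, -0.036 to 0.011 for SPRY1, -0.015 to 0.030 for SPRY2, -0.15 to 0.10 for SPRY4, -0.034 to 0.032 for SPRED1 and -0.13 to 0.040 for ETV5. KL-FL minus KL1 ran from -0.058 to 0.042 for DUSP4, -0.11 to 0.065 for DUSP5, -0.031 to 0.12 for SPRY2 and -0.029 to 0.037 for SPRED1. DUSP6 kept its sign in both comparisons with control under every alternative.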

Other observations

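Many deposited values were exactly equal between arrays. Of all genes, 68.5% had the same value on at least 2 arrays and 44.1% on at least 3. Among the 10 members 7 had such a pair, and 2 had the same value on 3 or more arrays: DUSP6 at 8.13 on KL-FL replicate 2 and KL1 replicates 1 and 2, and SPRY1 at 5.75 on KL-FL replicates 1 and 3 and KL1 replicates 1 and 2. Small SDs such as 0.0032 for DUSP6 with KL1 stand beside these repeats, whose source was not tested.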
